A study of Salmo salar with 189 samples.

Results

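Cry1-Ch10 and Cry1-Ch16 are the cryptochrome 1 genes of Atlantic salmon (Salmo salar) on chromosomes 10 and 16, a pair of duplicates (ohnologues) left by the genome duplication at the base of the salmonids. They were taken by gene name and chromosome from a table of 48 clock transcripts (which lists them as Cry1a), so they are 2 of 48 rows, and their genes are listed in RefSeq as LOC106561407 for Cry1-Ch10 and LOC106573292 for Cry1-Ch16. The samples were the optic tectum (OT) of the brain, the saccus vasculosus (SV, a ventral brain organ of fish) and the gill of pre-smolt fish of about 45 g, 63 samples of each tissue and 189 in all, from 3 fish at each time point. All fish were raised in constant light, held for 8 weeks in a light cycle that the labels give as 8 h of light and 16 h of dark (the methods state a shorter light phase), kept at 14 °C and fasted from 48 h before the first sample.

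The lit fish were sampled every 4 h at ZT5, ZT9, ZT13, ZT17 and ZT21 of the light cycle (LD, hours since lights on), then from CT1 to CT29 with the light left on (LL, hours since lights on of that day). The DD fish were sampled from CT1 to CT29 after the light was withheld from the last dusk on. In darkness, sampling used dim red lamps. The labels name the fish of the LD and LL samples with one letter and those of the DD samples with another, and the methods spread the fish over separate tanks, so light and tank cannot be told apart where lit fish are set against DD fish. The diel series was ZT5 to ZT21 plus the lit CT1 and CT5 (21 samples in each tissue), and the LL and DD series were CT9 to CT29 (18 samples each). Apart from 1 time point in DD, the same fish gave all 3 tissues. The transcripts measured are clock genes, so no marker of a tissue or cell type was at hand to check the dissections, and fewer cells of a type and less RNA per cell cannot be told apart in these bulk samples.

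Cryptochromes are relatives of the photolyases, enzymes that repair DNA with light, and in vertebrates they act in the negative limb of the circadian clock: with the PERIOD proteins they repress the CLOCK and ARNTL (BMAL) activators that drive their own transcription. In mouse, Cry1 peaks later than most other genes of the loop and its product is a strong repressor. Fish carry several cryptochromes, and in zebrafish some are induced by light while others follow the clock.

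Each transcript was read by NanoString probes that bind one stretch of 100 bases in the mRNA. The first 30 bases of each stretch are shown because what sets these ohnologues apart in the assay is where the probes bind. The sequences come from the study's probe table, and positions count from the 5′ end of the transcript used for the design.
Cry1-Ch10, positions 330 to 359: cgagcgagacctgtccttacactgtattta
Cry1-Ch16, positions 138 to 167: tcactcgctcgcgcttactgaactagcgct
The whole targets (positions 330 to 429 in Cry1-Ch10 and 138 to 237 in Cry1-Ch16) held the same base at 22 of 100 positions when laid side by side, and their longest shared run was 6 bases. Both had a GC content of 45%, and each had a stop codon in all 3 forward frames. The probes therefore read unlike stretches, and since the capture of each probe is unknown the ratio of the pair is compared between samples and not read as a ratio of molecules.

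Signal is the barcode count scaled to spike-in controls, and the authors did not scale it to other genes. In OT and gill both members were above the transcripts not expressed in the tissue, which averaged 5.31 in OT and 3.02 in gill. No transcript was listed as not expressed in SV, so this was not checked there. Cry1-Ch10 averaged 407 ± 62.0 in OT (SD, 63 samples, range 298 to 606), 177 ± 40.2 in SV (109.5 to 291) and 107 ± 19.2 in gill (44.1 to 140.1). Cry1-Ch16 averaged 132 ± 23.2 in OT (88.4 to 211), 78.1 ± 21.8 in SV (32.6 to 134) and 95.2 ± 23.2 in gill (31.7 to 148). The spread among the 3 fish of a group was modest in OT, where the median coefficient of variation was 11.2% for Cry1-Ch10 and 10.2% for Cry1-Ch16, against 18.0% and 22.5% in SV and 12.4% and 16.2% in gill. The sum over all 48 transcripts ranged 1.94-fold among OT samples, 2.30-fold among SV samples and 3.06-fold among gill samples. Because a sample's overall signal moves every transcript in it, results are also given relative to all expressed transcripts of the sample. For this, each sample was divided by their geometric mean. That reference is itself made of clock transcripts and differed between groups. Taken without the pair, it averaged 554 at ZT17 and 458 at ZT5 in OT. At CT21 in OT it averaged 537 in LL and 403 in DD. Its part in the results on the relative scale was not tested.

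The clearest contrast between tissues was in the balance of the pair. Cry1-Ch10 gave the higher signal in 63 of 63 OT samples, 63 of 63 SV samples and 44 of 63 gill samples. The log2 ratio of Cry1-Ch10 to Cry1-Ch16 averaged 1.63 ± 0.23 in OT (SD, 63 samples), a 3.09-fold ratio of signals that ranged from 2.12-fold to 4.95-fold. It averaged 1.19 ± 0.31 in SV (2.29-fold, range 1.38 to 5.12) and 0.19 ± 0.33 in gill (1.14-fold, range 0.708 to 2.19). OT stood 0.43 above SV and 1.43 above gill on the log2 scale, and SV stood 1.00 above gill. Each difference gave the smallest p that 100000 permutations of tissue within time point allow (1e-05, two-sided). It was 1.38e-05 after Benjamini-Hochberg adjustment over all pairs and tissue comparisons. These permutations did not pair the tissues by fish. Each of the differences kept its call and direction under 5 of 5 alternatives. The OT and gill samples shared only the range from 1.08 to 1.13, while those of OT and SV overlapped widely. The highest SV ratio came from 1 LL fish at CT21 with 32.6 for Cry1-Ch16, the lowest SV value of that gene, and 171 for Cry1-Ch10. A ratio that differs between tissues was usual in the table. For OT minus SV and for SV minus gill, 92.3% of 13 ohnologue pairs passed the same test, and for OT minus gill 85.7% of 14 did.

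**Figure D1:**
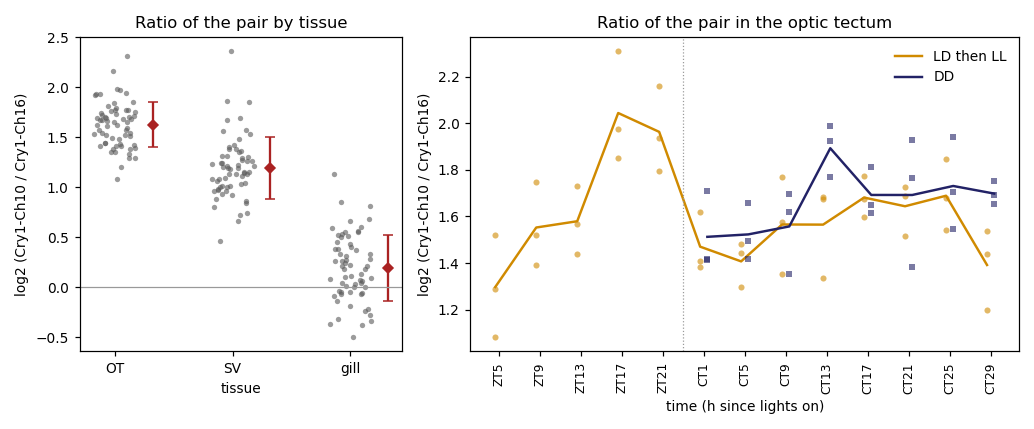
Log2 ratio of Cry1-Ch10 to Cry1-Ch16 signal. On the left, each point is 1 of 63 samples of a tissue and the diamond with bars is the mean ± SD (1.63 in OT, 1.19 in SV, 0.19 in gill); on the right, the OT ratio over time, with a point for each fish and lines through the means of the lit fish (LD, then LL after the dotted line) and of the DD fish, showing the high ratios at ZT17 and ZT21.

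In the light cycle, Cry1-Ch16 passed the test for a daily rhythm in OT and Cry1-Ch10 did not. The highest mean of Cry1-Ch16 was at ZT5 and its lowest at ZT17 and ZT21. Its 3 fish had 146, 167 and 173 at ZT5, 124, 124 and 149 at ZT9, and 104, 109 and 134 at ZT13. At ZT17 they had 101, 107 and 111 and at ZT21 104, 111 and 113, before 109.9, 123 and 153 at CT1 and 121, 129.8 and 151 at CT5. No fish of ZT13, ZT17 or ZT21 reached the lowest fish of ZT5, while the lit CT1 overlapped the dark ZT9 and ZT13. The high mean of 162 at ZT5 did not recur at the same hour a day later. The lit CT5 averaged 134, close to the 132 of ZT9. JTK_CYCLE, a rank test against 20 h and 24 h curves, gave an adjusted p of 0.00322 for Cry1-Ch16 over the 21 samples (0.0110 after Benjamini-Hochberg adjustment over transcripts). A 24 h cosine put its amplitude at 0.24 ± 0.0472 on the log2 scale (SE), which is 1.39-fold between peak and trough, with the peak at 5.58 ± 0.86 h after lights on. In OT 43.9% of the 41 expressed transcripts passed this test. Leaving out any 1 sample kept the call (highest adjusted p 0.0133), while leaving out the third fish of every time point ended it (0.231).

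Cry1-Ch10 showed no such low at ZT17 and ZT21. In OT its fish had 358, 368 and 481 at ZT5, 358, 392 and 419 at ZT9, 298, 349 and 399 at ZT13, 388, 399 and 552 at ZT17, and 394, 429 and 467 at ZT21. The lit mornings that followed gave 323, 339 and 407 at CT1 and 332, 364 and 373 at CT5. The values at ZT17 overlapped those at ZT5. The adjusted JTK_CYCLE p was 0.958 and the amplitude 0.0963 ± 0.0618. The amplitude of Cry1-Ch10 minus that of Cry1-Ch16 was -0.14. By 100000 permutations that swapped the members within fish, p was 0.0667 (0.167 after adjustment over 15 pairs). The amplitudes were thus not shown to differ. In any series, swapping takes the whole profiles as alike, so it does not separate amplitude from peak time. Here the fitted peaks were at 19.2 ± 2.59 h for Cry1-Ch10 and 5.58 ± 0.86 h for Cry1-Ch16. In this test 13.3% of the pairs passed.

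The ratio of the pair within each fish differed between the time points of the diel series in OT. In log2 units it was 1.30 ± 0.22 at ZT5, 1.55 ± 0.18 at ZT9, 1.58 ± 0.15 at ZT13, 2.04 ± 0.24 at ZT17 and 1.96 ± 0.18 at ZT21 (SD of the 3 fish), then 1.47 ± 0.13 at CT1 and 1.41 ± 0.10 at CT5 in the lit fish. Every fish at ZT17 and ZT21 was above every fish at ZT5, ZT9 and ZT13. Over these 7 time points alone, a permutation test on the ratio that was added after the values were seen gave p = 0.00097 in OT (0.00727 after adjustment over 15 pairs, of which 33.3% passed), 0.797 in SV (adjusted 0.797; 38.5% of 13 pairs passed) and 0.473 in gill (adjusted 0.733; 0% of 14 passed). Sixth-order curves with the members taken as independent gave F = 2.07 (p = 0.0591) for separate shapes over the diel and LL samples, and a permutation of time points on the ratio within fish (fish as a block) gave p = 0.00047. Over the diel and DD samples the curves gave F = 2.57 (p = 0.0215) and the permutation with fish as a block p = 0.00043. Only the blocked p-values were under the threshold of 0.01. Passing was a frequent outcome of the blocked test, which 60% of the 15 pairs passed for diel plus LL and 40% for diel plus DD, against 6.67% with the unblocked curves in each case. The blocked test asks whether the ratio differed at all between time points, light conditions included. In SV the pair passed neither test: the unblocked curves gave p of 0.994 for diel plus LL and 0.747 for diel plus DD (7.69% of 13 pairs passed each) and the blocked permutation 0.89 and 0.412 (15.4% and 30.8% passed). In gill the unblocked curves gave 0.873 and 0.99, with 0% of 14 pairs passing (1 and 0 pairs at p under 0.05), and the blocked permutation 0.178 and 0.329, with 0% and 7.14% passing.

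**Figure D2:**
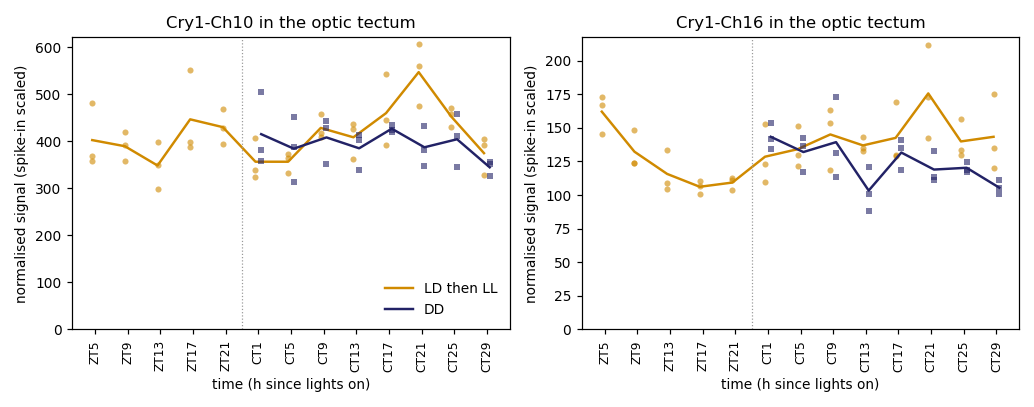
Normalised signal of Cry1-Ch10 (left) and Cry1-Ch16 (right) in OT against time, with a point for each of the 3 fish of a group and lines through group means, for the lit fish (LD, then LL after the dotted line) and the DD fish. Cry1-Ch16 falls to a mean of 106 at ZT17, and both members reach their highest means, 547 and 176, at CT21 in LL.

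In constant light Cry1-Ch10 passed the rhythm test in OT with an adjusted JTK_CYCLE p of 0.0359 (31.7% of 41 transcripts passed). Its best curve had a period of 20 h. Only 20 h and 24 h curves were tried, over the 6 time points from CT9 to CT29, so a period was not established. Its LL fish had 408, 418 and 459 at CT9, 362, 427 and 436 at CT13, and 392, 445 and 542 at CT17. They had 474, 560.2 and 606 at CT21, 429.6, 457 and 469.6 at CT25, and 328, 392 and 404 at CT29. No fish at CT25 or CT29 reached the lowest at CT21. By the 24 h cosine the amplitude was 0.19 ± 0.0586 and the peak at 20.2 ± 1.16 h. The call was not robust: it did not hold after adjustment over transcripts (0.113), nor without fish 1, 2 or 3 of every time point (0.0833, 0.456 and 0.208), and 9 of the 18 samples ended it when left out alone (1 fish at CT13, 2 at CT17, 3 at CT21, 2 at CT25 and 1 at CT29, with adjusted p between 0.0555 and 0.128). Relative to all expressed transcripts of the sample the call held, with an adjusted JTK_CYCLE p of 0.0359 (0.0867 after adjustment over transcripts). The amplitude on that scale was 0.12 ± 0.0434, with the peak at 21.6 h. The share of all transcripts that passed in LL on that scale is not given here.

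Cry1-Ch16 did not pass in LL, with an adjusted JTK_CYCLE p of 1 and an amplitude of 0.0939 ± 0.0735. The amplitude of Cry1-Ch10 minus that of Cry1-Ch16 was 0.0988 in LL (permutation p = 0.0545, 0.102 after adjustment over 15 pairs, of which 6.67% passed). For Cry1-Ch16 the LL fish had 119, 153 and 163 at CT9, 133, 135 and 143 at CT13, 129, 129 and 169 at CT17, and 143, 173 and 211 at CT21. They had 129.9, 133 and 156 at CT25 and 120.1, 135 and 175 at CT29. The low of ZT13 to ZT21 in LD was absent from these values. The lowest mean of CT9 to CT29 in LL was 137 at CT13. It was above the LD means of 116 at ZT13, 106 at ZT17 and 109 at ZT21.

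In constant darkness neither member passed in OT, where 22% of 41 transcripts did. The adjusted p was 1 for both, and the amplitudes were 0.0794 ± 0.0522 for Cry1-Ch10 and 0.0323 ± 0.0757 for Cry1-Ch16. The DD fish of Cry1-Ch16 had 114, 132 and 173 at CT9, 88.4, 101 and 121 at CT13, 119, 135 and 141 at CT17, 111, 113 and 133 at CT21, 118, 118 and 125 at CT25, and 100.5, 105 and 111 at CT29. The means were lowest at CT13 (103) and CT29 (105). Neighbouring times overlapped, except that every fish at CT29 was below every fish at CT25. Relative to all expressed transcripts of the sample, Cry1-Ch10 did pass in DD (adjusted p 0.00019, amplitude 0.13 ± 0.0191, peak at 21.5 h; 34.1% of transcripts passed on that scale), while Cry1-Ch16 had 0.133 with an amplitude of 0.13 ± 0.0516.

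The difference between series was then tested itself. The amplitude of Cry1-Ch10 in LL minus DD was 0.11 (adjusted p = 0.483, permutation of series within clock time) and in LL minus diel 0.0964 (0.393). That of Cry1-Ch16 was -0.14 in LL minus diel (0.21) and -0.20 in DD minus diel (0.0574). None passed, against 2.44% of 41 transcripts for LL minus DD, 14.6% for LL minus diel and 17.1% for DD minus diel. Relative to all expressed transcripts, the diel amplitude of Cry1-Ch16 was 0.38 ± 0.0429 with the peak at 5.04 h (adjusted JTK_CYCLE p 1.58e-05; 61% of transcripts passed on that scale), and both differences for this gene passed: -0.31 for LL minus diel (adjusted permutation p = 0.000957) and -0.26 for DD minus diel (0.0251). On that scale 34.1% of the 41 transcripts passed for LL minus diel and 41.5% for DD minus diel. The fitted peaks of Cry1-Ch16 there were at 1.67 ± 2.56 h in LL and 23.0 ± 1.57 h in DD. Permuting series takes the whole profiles as alike, so it does not separate amplitude from peak time.

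**Figure D3:**
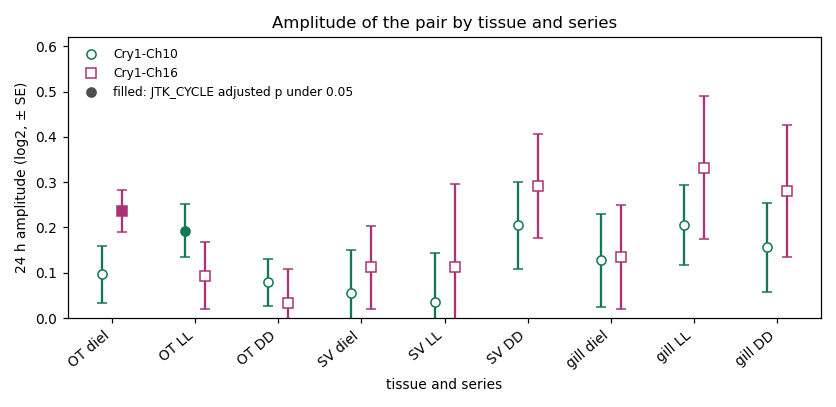
Amplitude of the 24 h cosine on the log2 scale (± SE) for Cry1-Ch10 (circles) and Cry1-Ch16 (squares) in each tissue and series; filled symbols passed JTK_CYCLE at an adjusted p under 0.05. The 2 filled symbols are Cry1-Ch16 in the diel series of OT (0.24) and Cry1-Ch10 in the LL series of OT (0.19).

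In SV neither member passed in any series. Of the 38 transcripts 18.4% passed over the diel samples, 2.63% over the DD samples and 0% over the LL samples (3 at an unadjusted JTK_CYCLE p under 0.05 and 1 by the cosinor permutation). Amplitudes ran from 0.0346 ± 0.11 for Cry1-Ch10 in LL to 0.29 ± 0.11 for Cry1-Ch16 in DD, and adjusted p-values from 0.262 to 1. In the diel series Cry1-Ch16 in SV had 59.5, 73.7 and 93.4 at ZT5, 86.3, 97.0 and 102 at ZT9, 52.5, 53.0 and 63.5 at ZT13, 61.2, 79.8 and 85.9 at ZT17, and 59.8, 66.4 and 102 at ZT21. All fish at ZT13 lay below all fish at ZT9, and the fish at ZT21 spanned both. Relative to all expressed transcripts its diel amplitude was 0.26 ± 0.0715 with the peak at 4.17 h, and the adjusted p was 0.0735.

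In gill neither member passed either. Of the 40 transcripts 12.5% passed over the diel samples, 5% over the LL samples and 2.5% over the DD samples. The lowest adjusted p was 0.104, for Cry1-Ch10 in LL, with an amplitude of 0.21 ± 0.0883. The largest amplitude was that of Cry1-Ch16 in LL, 0.33 ± 0.16, with an adjusted JTK_CYCLE p of 1. The amplitudes of the 2 members were not shown to differ in any series of SV or gill (Cry1-Ch10 minus Cry1-Ch16 from -0.13 to -0.00754, adjusted permutation p from 0.52 to 0.948). The null for tied time points brought Cry1-Ch10 in LL to 0.0449, and the scale relative to all expressed transcripts brought Cry1-Ch16 in LL to 0.0359 (10% of transcripts passed on that scale). The share of all gill transcripts that passed under the null for tied time points is not given here.

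Both members were low in gill 17 h after lights on in all 3 conditions. Cry1-Ch16 had 34.9, 89.3 and 94.7 at ZT17 in LD, 31.7, 53.1 and 84.4 at CT17 in LL, and 40.3, 43.1 and 74.4 at CT17 in DD. Cry1-Ch10 had 44.1, 95.8 and 108 in LD, 56.2, 97.1 and 99.0 in LL, and 64.5, 65.2 and 109.8 in DD at these times. The geometric mean of the other 38 expressed transcripts was low in the same groups: 67.4, 95.9 and 109 in LD, 55.7, 103 and 104 in LL, and 70.0, 86.5 and 104 in DD, against a median of 107 over all gill samples. The 4 gill samples lowest on that measure were all from this hour, and its part in the values of the pair was not tested. Without the 17 h samples the amplitude of Cry1-Ch16 in gill was 0.13 in LL and 0.0482 in DD, against 0.33 and 0.28 with them, and that of Cry1-Ch10 0.12 and 0.0664, against 0.21 and 0.16.

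**Figure D4:**
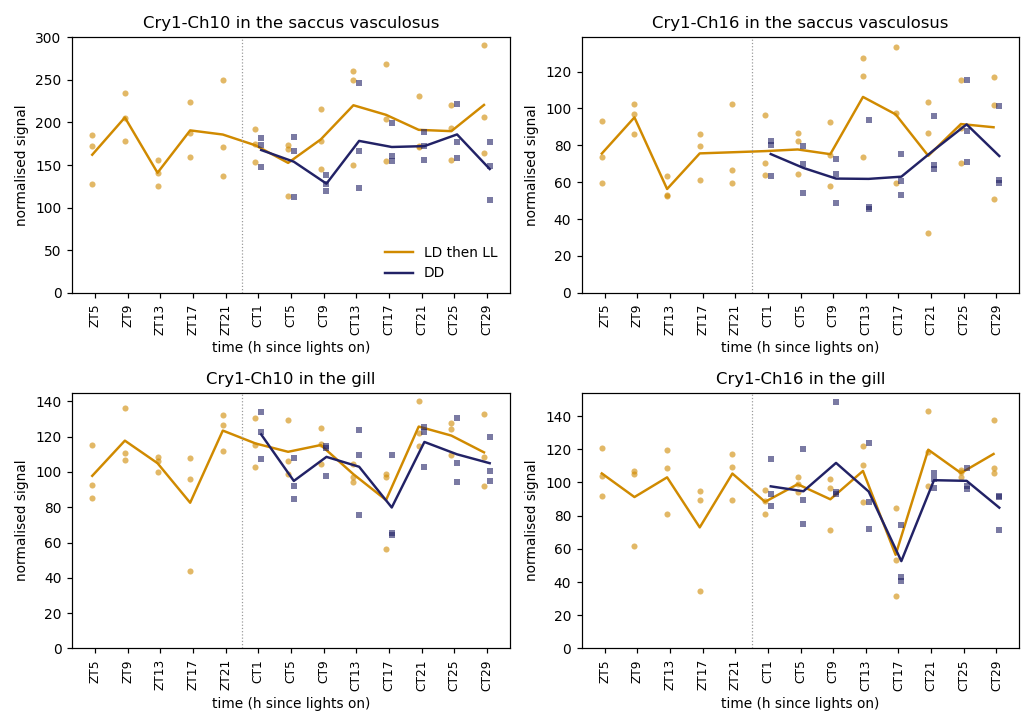
Normalised signal of Cry1-Ch10 (left) and Cry1-Ch16 (right) against time in SV (top) and gill (bottom), with a point for each of the 3 fish of a group and lines through group means, for the lit fish (LD, then LL after the dotted line) and the DD fish. The gill means are lowest at 17 h in each condition, for example 56.4 in LL and 52.6 in DD for Cry1-Ch16.

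Between tissues, no difference in diel amplitude passed for either member. The test permuted tissue within time points and did not pair the tissues by fish. It too takes the whole profiles as alike and does not separate amplitude from peak time. Cry1-Ch16 in OT minus SV was 0.12 (adjusted permutation p = 0.487) and in OT minus gill 0.10 (0.67). Cry1-Ch10 ranged from -0.0716 for SV minus gill to 0.0402 for OT minus SV (adjusted permutation p from 0.654 to 0.811). Over all transcripts 10.8% passed for OT minus SV, 20.5% for OT minus gill and 0% for SV minus gill (3 at an unadjusted permutation p under 0.05). So the rhythm called for Cry1-Ch16 in OT, and in neither SV nor gill, was not shown to differ between tissues on the deposited scale. On the relative scale OT minus gill was 0.31 for Cry1-Ch16 with an adjusted p of 0.00563, and 28.2% of transcripts passed on that scale. For OT minus SV this gene did not pass on the relative scale, where its diel amplitudes were 0.38 in OT and 0.26 in SV.

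Constant light was set against constant darkness at the same hours (CT9 to CT29). Both members were higher in LL than in DD in OT, and Cry1-Ch10 also in SV. In OT Cry1-Ch10 averaged 445 ± 69.0 in LL and 392 ± 42.5 in DD (SD, 18 samples each), a log2 difference of 0.17 ± 0.0506 (SE) with an adjusted permutation p of 0.00774, and the LL mean was above the DD mean at 6 of 6 time points. At CT21 the LL fish had 474, 560.2 and 606 against 347, 381 and 433 in DD fish, the only hour at which no fish overlapped. Cry1-Ch16 averaged 147 ± 23.8 in LL and 119.8 ± 18.8 in DD, a log2 difference of 0.29 ± 0.0662 (adjusted permutation p 0.00115), also in the same direction at 6 of 6 time points and with no overlap at 4 of them. The 2 members were thus both called in OT, where 48.8% of 41 transcripts were (39% higher in LL and 9.76% lower). Hours without overlap, here and in the comparisons below, were counted for the 2 members only, with no share over all transcripts.

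On the scale relative to all expressed transcripts, the LL minus DD difference in OT was 0.0304 ± 0.0337 for Cry1-Ch10 (adjusted permutation p = 0.413) and 0.15 ± 0.0443 for Cry1-Ch16 (0.00673). This scaling lowered the median difference over all OT transcripts by 0.14, and on it 22% of the 41 were called higher in LL and 46.3% lower, so the balance of directions turned round between the scales. The call for Cry1-Ch10 on the deposited scale also ended when fish 1 or fish 3 of every time point was left out (adjusted permutation p 0.0563 and 0.0561, log2 difference 0.15 and 0.17). The ratio of the pair averaged 1.59 ± 0.17 in LL and 1.71 ± 0.18 in DD in log2 units, a difference of -0.12 in a test added after these values were seen (permutation p = 0.0424, 0.106 after adjustment over 15 pairs, of which 33.3% passed). The members were therefore not shown to differ in this response.

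In SV Cry1-Ch10 averaged 202 ± 44.5 in LL and 164 ± 35.6 in DD, a log2 difference of 0.30 ± 0.11 (adjusted permutation p 0.0238). Its LL mean was above its DD mean at 6 of 6 time points, and the fish did not overlap at CT9 alone, where LL fish had 145, 179 and 216 and DD fish 119, 127 and 138. Cry1-Ch16 averaged 89.0 ± 28.2 in LL and 71.6 ± 20.0 in DD, with 0.28 ± 0.16 (0.139). In SV 34.2% of 38 transcripts were called higher in LL and none lower, and the scaling lowered the median difference by 0.29. The relative scale gave 0.00522 ± 0.0451 for Cry1-Ch10 (0.974) and -0.0150 ± 0.10 for Cry1-Ch16 (0.974), so the call for Cry1-Ch10 held on the deposited scale only. Of the 38 transcripts 5.26% were called higher and 2.63% lower on the relative scale. It also ended without fish 1, 2 or 3 of every time point (adjusted permutation p 0.0698, 0.185 and 0.0552).

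In gill the differences were small: 0.0743 ± 0.0852 for Cry1-Ch10 (109 ± 19.3 in LL and 104 ± 19.6 in DD, adjusted permutation p = 0.51) and 0.12 ± 0.11 for Cry1-Ch16 (99.3 ± 27.1 and 91.0 ± 25.4, 0.485), where 10% of 40 transcripts were called higher and 10% lower. Whether LL minus DD differed between tissues was tested within fish, again in a test added after the values were seen. The 6 differences lay between -0.14 (Cry1-Ch10, OT minus SV) and 0.23 (Cry1-Ch10, SV minus gill), with adjusted permutation p from 0.278 to 0.888, while 21.6% of transcripts passed for OT minus SV, 25.6% for OT minus gill and 25% for SV minus gill.

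The lit night compared LL at CT9 to CT21 with the dark hours of the cycle before it (ZT9 to ZT21) in fish of the same letter, so that the day of sampling and the light cannot be told apart. Cry1-Ch16 in OT was higher in the lit night, 150.1 ± 25.7 against 116 ± 14.2 in the dark night (SD, 12 samples each), a log2 difference of 0.36 ± 0.0730 with an adjusted permutation p of 0.00523. The means were higher at 4 of 4 hours, and at CT17 against ZT17 (129, 129 and 169 against 101, 107 and 111) and CT21 against ZT21 (143, 173 and 211 against 104, 111 and 113) no fish overlapped. In OT 12.2% of 41 transcripts were called higher and 0% lower. On the relative scale the difference was 0.28 ± 0.0564 (0.00593), where 19.5% of the 41 were called higher and 31.7% lower. Without fish 2 or fish 3 of every time point it was 0.31 in each case (adjusted permutation p 0.122 and 0.119).

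Cry1-Ch10 in OT averaged 461 ± 73.0 in the lit night and 403 ± 63.2 in the dark night, with 0.19 ± 0.0748 (adjusted permutation p = 0.0885). The ratio of the pair averaged 1.61 ± 0.15 in the lit night and 1.78 ± 0.28 in the dark night in log2 units, a difference of -0.17 that did not pass the added test (permutation p = 0.038, 0.0815 after adjustment over 15 pairs, of which 33.3% passed). In SV and gill neither member passed: the log2 differences were 0.15 ± 0.13 for Cry1-Ch10 and 0.16 ± 0.19 for Cry1-Ch16 in SV (adjusted permutation p = 0.771 for both), and -0.00230 ± 0.13 and -0.0267 ± 0.18 in gill (0.979 for both). Of all transcripts 0% passed in SV (3 at an unadjusted permutation p under 0.05) and 2.5% in gill.

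Withholding the light on the first morning did not shift either member past the test. At CT1 and CT5 Cry1-Ch10 in OT averaged 356 ± 31.2 in lit fish and 399 ± 68.3 in fish kept dark (SD, 6 samples each), a log2 difference of -0.15 ± 0.12 (exact permutation p = 0.23, adjusted 0.314). Its lit fish had 323, 339 and 407 at CT1 and the dark fish 359, 381 and 505. Cry1-Ch16 averaged 131 ± 17.2 in lit fish and 138 ± 12.2 in dark fish, with -0.0729 ± 0.0978 (exact permutation p = 0.475, adjusted 0.59). Its lit fish had 109.9, 123 and 153 at CT1 and 121, 129.8 and 151 at CT5, and its dark fish 134, 142 and 154 and 117, 137 and 142, so both groups overlapped at both hours. In OT 14.6% of transcripts passed, all of them lower in the light on the deposited scale, whose median difference was -0.25. On the relative scale 7.32% were called higher and 17.1% lower. In SV the differences were 0.0191 ± 0.16 for Cry1-Ch10 and 0.11 ± 0.15 for Cry1-Ch16, and in gill 0.0827 ± 0.10 and -0.0235 ± 0.12 (adjusted exact permutation p from 0.6 to 0.912), where 0% of transcripts passed in either tissue (9 in SV and 11 in gill at an unadjusted exact permutation p under 0.05). With 6 fish against 6 in 2 strata the test has 400 arrangements and cannot go below 0.005.

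**Figure D5:**
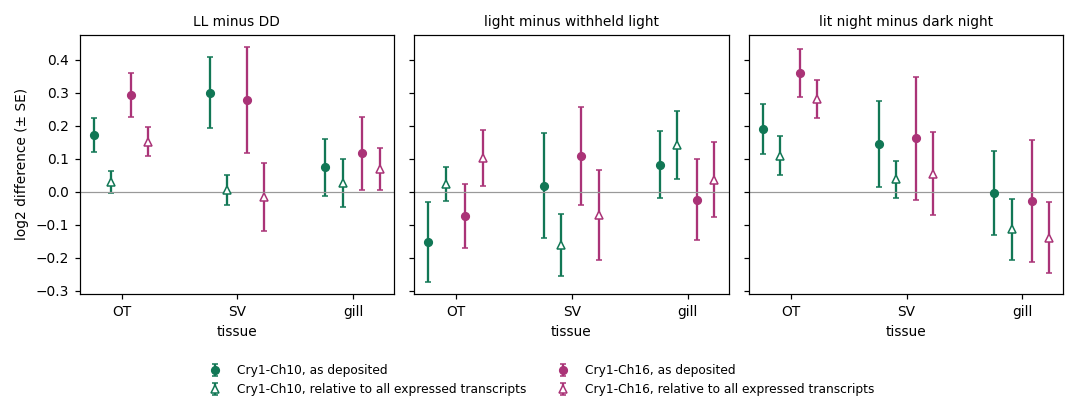
Log2 differences (± SE) of Cry1-Ch10 and Cry1-Ch16 in each tissue for LL minus DD, light minus withheld light on the first morning, and lit night minus dark night. Filled circles are deposited values and open triangles are values relative to all expressed transcripts of the sample: Cry1-Ch16 in OT stays above 0 on both scales for LL minus DD (0.29 and 0.15) and for the lit night (0.36 and 0.28).

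The other cryptochromes are set beside the pair here. Cry2-Ch10 and Cry2-Ch26, clock repressors of the same family, passed in OT over the diel samples with amplitudes of 0.26 ± 0.0614 and 0.46 ± 0.0776 and peaks at 19.9 and 20.2 h (adjusted JTK_CYCLE p 0.0073 and 0.000421), and in LL with 0.23 ± 0.0444 and 0.33 ± 0.0416 (0.0106 and 0.00173). Cry3-Ch12, Cry3-Ch22 and Cry4-Ch13 did not pass in OT in any series. The 2 of 5 that passed stood beside 43.9% of all OT transcripts over the diel samples and 31.7% in LL. In DD neither Cry2-Ch10 nor Cry2-Ch26 passed in OT (adjusted JTK_CYCLE p 0.211 and 0.0809). None of the 5 thus passed in DD, against 22% of all OT transcripts. Of these 5 genes, 3 were called higher in LL than in DD in OT, against 39% of all transcripts. In SV 4 were, against 34.2%, and in gill 2 were, against 10%. None was called lower. These calls are on the deposited scale. Calls of these 5 genes on the relative scale are not given here, so their counts cannot be set against the shares on that scale. There the share of all transcripts called higher was 22% in OT, 5.26% in SV and 10% in gill. On the deposited scale Cry3-Ch22 had a log2 difference of 0.61 ± 0.0477 in OT, 1.28 ± 0.18 in SV and 1.11 ± 0.13 in gill. The median deposited LL minus DD difference of the 5 genes in OT was 0.33, against 0.0627 over all 41 transcripts.

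Of the 11 other genes of the negative limb (Per, Cry2, Cry3 and Ciart, repressors of CLOCK and ARNTL), 10 were among the expressed transcripts tested in OT. Of these 7 passed over the diel samples, against 43.9% of all OT transcripts, 6 over the LL samples, against 31.7%, and 3 over the DD samples, against 22%. Their median diel amplitude was 0.49, against 0.24 over all transcripts. Per1-Ch4 and Per1-Ch11 peaked at 16.8 and 17.4 h with amplitudes of 0.81 each, within the hours at which Cry1-Ch16 was lowest. In SV 4 of 10 passed over the diel samples, against 18.4% of all SV transcripts, and none in LL or DD, against 0% and 2.63%. In gill 1 of 11 passed in each series, against 12.5%, 5% and 2.5% of all gill transcripts. For LL minus DD, 5 of 10 were called higher and 1 lower in OT, against 39% and 9.76%, 6 of 10 higher in SV, against 34.2%, and 1 of 11 higher and 3 lower in gill, against 10% each. For the lit night 3 of 10 were called higher in OT, against 12.2%. None were in SV or gill, against 0% and 2.5% of all transcripts. With light withheld 1 of 10 was called lower in the light in OT, against 14.6%. None were in SV or gill, against 0% of all transcripts in each.

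Of the 6 genes of the positive limb (Arntl1 and Clock, the activators), in OT 2 passed over the diel samples, 1 over the LL samples and 4 over the DD samples, beside the same shares of all OT transcripts (43.9%, 31.7% and 22%). None passed in SV, where 18.4% of all transcripts did over the diel samples, 0% in LL and 2.63% in DD. In gill 2 passed over the diel samples only, where 12.5% of all transcripts did. LL minus DD called 2 higher and 1 lower in OT, against 39% and 9.76% of all transcripts. It called 1 higher in SV, against 34.2%, and none in gill, against 10% each way. Light minus withheld light called 1 lower in OT, against 14.6%. The lit night called none in any tissue, against 12.2% in OT, 0% in SV and 2.5% in gill.

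Over the 21 condition and time point groups, on the scale relative to all expressed transcripts, the transcripts most like Cry1-Ch10 in OT were Cry2-Ch10 (Pearson r = 0.63), Nr1d2-Ch27 (0.47) and Cry2-Ch26 (0.45). Those most like Cry1-Ch16 in OT were Tef-Ch1 (0.55), Arntl1-Ch10 (0.52) and Arntl1-Ch26 (0.51). The members correlated with each other at 0.42 in OT, 0.55 in SV and 0.29 in gill. In SV Cry1-Ch10 was most like Cry2-Ch26 (0.69), Cry1-Ch16 (0.55) and Rora-Ch26-1 (0.51), and Cry1-Ch16 was most like CKIe-Ch1 (0.63), Tef-Ch1 (0.61) and Cry2-Ch10 (0.58). In gill the leading transcripts were Rora-Ch10 (0.52), CKId-Ch28 (0.45) and CKIe-Ch3 (0.36) for Cry1-Ch10, and Nr1d2-Ch2 (0.56), Tef-Ch1 (0.54) and Arntl1-Ch11 (0.43) for Cry1-Ch16. These correlations describe 21 group means that share fish and sample scale.

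Among fish of the same group, the deposited values of the members deviated together in OT and SV. On this scale a sample's overall signal enters the values of both members, and its part in their correlation was not tested. Other pairs of transcripts were not tested in this way. The correlation of their deviations from the group mean was r = 0.55 in OT (Spearman's rho 0.56) and 0.64 in SV (0.64), over 63 samples each, with adjusted p-values of 0.00027 and 0.00018 for r and 0.00042 and 0.00012 for rho from permutation within groups over 6 relations. Without the 2 samples farthest from the median of Cry1-Ch10 it was 0.56 in OT and 0.59 in SV. In gill r was 0.48 (adjusted permutation p = 0.0868) and rho 0.22 (0.403), and r was 0.27 without those 2 samples. Relative to all expressed transcripts r was 0.0968 in OT, -0.0533 in SV and -0.0773 in gill (rho 0.0608, 0.0131 and -0.14, adjusted permutation p from 0.571 to 0.939), and no shared deviation of the pair was detected on that scale.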

How the data were processed

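NanoString barcodes for clock transcripts were counted in OT, SV and gill RNA. The deposited signal is, per the study's methods, the barcode count normalised by the authors to spike-in positive controls in nSolver. It was used as given, on the log2(signal + 1) scale. Rows were named after the study's tables, and the 41, 38 and 40 transcripts that these list as expressed in OT, SV and gill were tested. The counting depth behind each value was not recovered, so no count model was run. The 3 fish of a time point were separate animals.

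Rhythms were tested with JTK_CYCLE, written in Python 3.11.15 with NumPy 2.4.6 and SciPy 1.17.1 (11 curves, Bonferroni adjustment, threshold 0.05), with a 24 h cosinor for amplitude and peak. Differences in level and amplitude used 100000 two-sided permutations within time points with Benjamini-Hochberg adjustment over all transcripts or pairs of the comparison, and profiles a sixth-order polynomial F test at 0.01. The tissues of a fish, and the members in a sample, pair by the fish named in the labels (62 of 64 fish gave all 3 tissues), which replicate numbers do not. Alternatives were another null, pseudocount, scaling or adjustment, fish as a block, and each replicate left out. Scripts were tested on simulated data. The members, lists and tests were chosen with earlier results of these data known. Text names the pair, the other cryptochromes, the negative and positive limb lists, and the 3 transcripts most like each member. All columns belonged to samples of the series.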

Additional observations from a re-analysis of the deposited data

Results flagged for a closer look

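The log2 ratio of Cry1-Ch10 to Cry1-Ch16 differed between tissues by the permutation test of the difference itself: OT minus SV was 0.43, OT minus gill 1.43 and SV minus gill 1.00. Most ohnologue pairs passed the same test, in the shares given with the tissue ratios above, so passing does not set this pair apart. On the deposited scale no diel amplitude of either member was shown to differ between tissues, nor any OT amplitude between series. With 3 fish in each group no sample was tested for standing apart from its group.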

How the results depend on the processing

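Of 66 results, 33 kept their direction and side of the threshold under every alternative. Another 19 turned in direction under at least 1, none of them among the 9 that passed the test. Rhythms and pair profiles were not scored for direction. Not every call held: the rhythm of Cry1-Ch16 in the OT diel series did under 27 of 28 alternatives. That of Cry1-Ch10 in OT in LL held under 12 of 25. LL minus DD of Cry1-Ch10 held under 3 of 6 in OT and 2 of 6 in SV. The lit night difference of Cry1-Ch16 in OT held under 4 of 6. No count model was run, since whole barcode counts were not recovered, and no paired analysis by replicate number was made, since fish and not numbers pair the samples. With fish as a block, permutation gave the pair profile in OT p = 0.00047 for diel plus LL and 0.00043 for diel plus DD, and 60% and 40% of the pairs passed that test. For rhythms, a null that allows for tied time points brought the adjusted p of Cry1-Ch10 in gill in LL to 0.0449, Benjamini-Hochberg adjustment gave 0.113 for Cry1-Ch10 in OT in LL, and the scale relative to all expressed transcripts 0.00019 for Cry1-Ch10 in OT in DD and 0.0359 for Cry1-Ch16 in gill in LL. On that relative scale LL minus DD was 0.0304 for Cry1-Ch10 in OT, 0.00522 for Cry1-Ch10 in SV and -0.0150 for Cry1-Ch16 in SV. Light minus withheld light was 0.0240 for Cry1-Ch10 and 0.10 for Cry1-Ch16 in OT, -0.16 and -0.0692 in SV, and 0.0369 for Cry1-Ch16 in gill. Differences in diel amplitude on it were -0.0105 (Cry1-Ch10, OT minus SV), 0.0334 (Cry1-Ch10, OT minus gill) and 0.0439 (Cry1-Ch10, SV minus gill). For Cry1-Ch16 they were 0.31 (OT minus gill) and 0.18 (SV minus gill). Differences in OT amplitude on it were -0.00763 for Cry1-Ch10 and -0.0549 for Cry1-Ch16 in LL minus DD. They were -0.31 for Cry1-Ch16 in LL minus diel, and 0.0208 for Cry1-Ch10 and -0.26 for Cry1-Ch16 in DD minus diel. Without the 17 h gill samples, an alternative chosen after seeing the data, lit night minus dark night of Cry1-Ch16 in gill was 0.0794. The cause of these changes was not tested.

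With replicates left out, the adjusted rhythm p ranged from 0.00139 to 0.231 for Cry1-Ch16 in OT in the diel series, from 0.00912 to 0.456 for Cry1-Ch10 in OT in LL, from 0.041 to 1 for Cry1-Ch16 in SV in DD, and from 0.041 to 0.898 for Cry1-Ch10 in gill in LL. LL minus DD ranged from 0.15 to 0.20 for Cry1-Ch10 in OT and from 0.26 to 0.35 in SV, and the lit night difference of Cry1-Ch16 in OT from 0.31 to 0.47. Light minus withheld light ranged from -0.0713 to 0.11 for Cry1-Ch10 in SV and from -0.0818 to 0.0400 for Cry1-Ch16 in gill, and the lit night difference in gill from -0.0588 to 0.0587 for Cry1-Ch10 and from -0.20 to 0.0888 for Cry1-Ch16. The amplitude of Cry1-Ch10 minus that of Cry1-Ch16 ranged from -0.0227 to 0.0312 in OT in DD and from -0.21 to 0.0148 in SV in LL. It ranged from -0.16 to 0.0192 in SV in DD and from -0.0317 to 0.0284 in gill in the diel series. Diel amplitude differences ranged from -0.14 to 0.0456 for Cry1-Ch10 in OT minus gill and from -0.19 to 0.14 for Cry1-Ch16 in SV minus gill, and OT amplitude differences from -0.0160 to 0.0951 for Cry1-Ch16 in LL minus DD. Each time point had 3 fish. Some fitted amplitudes of the pair were smaller than their SE, such as 0.0346 ± 0.11 for Cry1-Ch10 in SV in LL. Leaving out a replicate leaves 36 arrangements for light minus withheld light, which cannot go below an exact p of 0.0556.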
